A study of Mus musculus with 2 samples.

Results

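Wfs1 and Cisd2, the genes mutated in the recessive forms of Wolfram syndrome, and 7 further genes of calcium handling in the endoplasmic reticulum (ER) were examined for binding of CHOP. CHOP, the product of Ddit3, is a transcription factor of the C/EBP family that is made when proteins misfold in the ER. The 7 further genes were Atp2a2, Itpr1, Itpr2, Itpr3, Stim1, Stim2 and Tmco1, so that 9 of 21866 protein-coding genes are described. The members were chosen by name with the CHOP peaks of this list known, and the peak folds that follow are therefore given as a description with no test. A peak was taken as a promoter peak where the summit was no more than 1 kb from the start of a protein-coding transcript of the gene. A distal peak had its summit further away but within 50 kb, with that gene's start site the nearest.

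The data came from the liver of wild-type (WT) mice injected intraperitoneally with Tunicamycin, which blocks N-linked glycosylation in the ER, at 1 mg/kg of body weight for 8 h. Chromatin pooled from 3 mice gave 1 CHOP immunoprecipitate, and 1 input library of the same tissue, genotype and treatment served as its control. No untreated or CHOP-deficient sample was analysed here, and the strain, sex and age of the mice are not given in the sources used here. Whole liver holds several cell types, and a peak does not tell in which of them CHOP was bound. For the immunoprecipitate the authors deposited 14157 peaks. The fold of a peak is the reads at its summit plus 1, divided by the local background plus 1. It is therefore lower than the plain ratio of reads to background, most of all where the background is small. These folds ran from 2.31 to 158 with a median of 6.75, and a median of 11 reads (4 to 329) stood at the summit. Without a second library no spread between samples could be measured. Intervals given with folds are exact 95% Poisson intervals on the reads at the summit, and they cover counting error only.

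The ER is the main calcium store of the cell, and its chaperones need a high calcium level in the lumen to fold proteins. The pump SERCA fills the store, inositol trisphosphate receptors empty it on hormone signals, and STIM proteins sense the fall in the lumen and open calcium channels of the plasma membrane. In hepatocytes, calcium release through these receptors follows glucagon, vasopressin and adrenergic signals and acts on glucose output and bile secretion. Loss of WFS1, an ER membrane protein, or of CISD2, an iron-sulfur protein of the ER and mitochondria-associated membranes, disturbs ER calcium and sensitises cells to ER stress.

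Sequences at or beside the summits that carry the description are shown first, each on the strand of its gene in GRCm38 (mm10), with searched motifs in capitals. The Wfs1 stretch is limited to 30 bases around its motif match, because the window lies mostly in a 5′ UTR, and it ends 4 bp upstream of the summit. The others are the 101 bases around a summit. They come from the 3 members of highest promoter fold and from the 5 distal peaks of highest fold. None of the 5 distal summits is soft-masked as a repeat, although 16.8% of the bases in the Itpr1 window are.
Wfs1 promoter, chr5:36988908-36988937, minus strand, TGCAAT hexamer in capitals: cagctggccgcTGCAATctccgcggtttcg
Cisd2 promoter, chr3:135423118-135423218, minus strand, GC boxes and an E-box in capitals: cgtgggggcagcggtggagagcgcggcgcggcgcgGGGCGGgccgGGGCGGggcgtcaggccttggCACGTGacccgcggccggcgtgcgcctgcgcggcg
Atp2a2 stronger promoter peak, chr5:122501426-122501526, minus strand, a GC box in capitals: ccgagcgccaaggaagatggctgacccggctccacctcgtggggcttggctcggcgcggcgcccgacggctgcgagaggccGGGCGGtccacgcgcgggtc
Stim2 upstream peak, chr5:53995445-53995545, plus strand, GC boxes on the other strand and a CRE-like octamer in capitals: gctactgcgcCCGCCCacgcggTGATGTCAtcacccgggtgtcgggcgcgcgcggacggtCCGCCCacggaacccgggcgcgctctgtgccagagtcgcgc
Stim2 intron peak, chr5:54060162-54060262, plus strand, a CARE core in capitals: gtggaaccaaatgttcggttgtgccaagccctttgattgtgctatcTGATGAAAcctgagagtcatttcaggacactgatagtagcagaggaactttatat
Atp2a2 far upstream peak, chr5:122542158-122542258, minus strand, a CARE core read on the other strand in capitals: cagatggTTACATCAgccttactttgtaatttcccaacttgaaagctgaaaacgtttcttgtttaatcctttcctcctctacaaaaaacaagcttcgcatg
Wfs1 intron peak, chr5:36978396-36978496, minus strand, a CARE core in capitals: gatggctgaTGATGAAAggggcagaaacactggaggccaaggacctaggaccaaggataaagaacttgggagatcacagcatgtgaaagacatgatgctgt
Itpr1 intron peak, chr6:108426997-108427097, plus strand, a CCAAT box in capitals: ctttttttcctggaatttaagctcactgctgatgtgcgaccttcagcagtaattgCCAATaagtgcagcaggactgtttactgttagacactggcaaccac

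CHOP peaks lay at the promoters of both Wolfram genes, of the SERCA pump gene, of both STIM genes, of Tmco1 and of Itpr3, and at none of the start sites of Itpr1 and Itpr2. In all, 7 of the 9 genes had a promoter peak, where 27.9% of all protein-coding genes had one. A distal peak was assigned to 6 of the 9 genes, against 18.0% of all protein-coding genes. Each of the 9 had a peak of either kind, against 38.2% of all protein-coding genes. Because the members were chosen with these peaks known, nothing is read from these shares. The 9 genes carried 8 promoter and 10 distal peaks, and none of the 8 promoter summits lay within 1 kb of a start site of another protein-coding gene. The promoter summit farthest from a start site was that of Itpr3 at 467 bp, and the nearest distal summit was that of Stim2 at 3004 bp, so no member lay near the 1 kb limit. At the 50 kb limit the farthest summit inside was at 45156 bp in Stim2. Of summits beyond the limit but inside a member gene, the nearest was at 80263 bp in Itpr1. Summits beyond 50 kb and outside the gene were not listed, so how close one lay to the limit is not known.

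**Figure D1:**
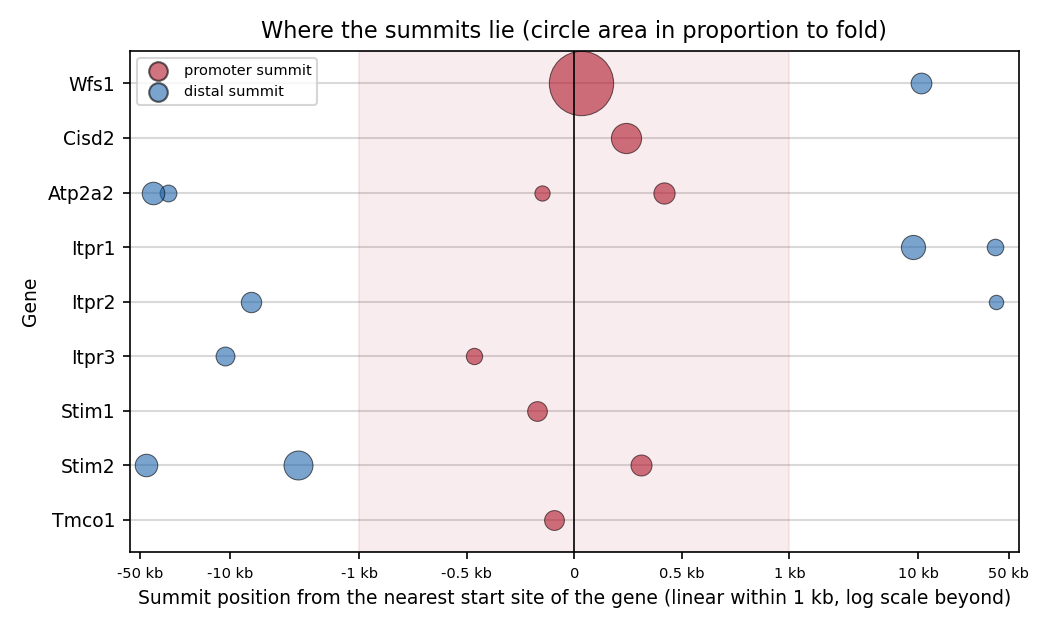
Summits of the CHOP peaks by gene (rows) against their position from the nearest start site of that gene, with upstream positions negative, linear within 1 kb and on a log scale beyond. Circle area is in proportion to fold, red circles are promoter summits, blue circles are distal summits, and the shaded band is the 1 kb zone, in which Itpr1 and Itpr2 have no circle.

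Wfs1 had by far the highest fold of the 9 genes. Its promoter peak, chr5:36988336-36989305, held 157 reads at the summit in the immunoprecipitate against a local background of 0.99 reads, a fold of 79.4 (67.5 to 92.7) with 1 added to both. That is rank 9 among the 6100 genes with a promoter peak, and the lower bound of its interval lies above the upper bound of every other member peak. The fold was 4.54 times that of Cisd2, the next of the members. The peak was 970 bp wide, wider than or as wide as 95.4% of promoter peaks. Its summit lay in the 5′ UTR of exon 1, 29 bp downstream of the inner of its 2 annotated start sites and 301 bp downstream of the outer. A second Wfs1 peak lay in an intron 10487 bp downstream of the inner start site, with 10 reads against a background of 0.333 and a fold of 8.25 (4.35 to 14.5).

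Cisd2 stood next. Its promoter peak, chr3:135423002-135423711, held 50 reads against a background of 1.91 reads, a fold of 17.5 (13.1 to 23.0), at rank 412 of the 6100 genes. The summit lay in the first intron, 239 bp downstream of the inner start site, in a window with 86.1% G and C. The interval lies below that of Wfs1 and above those of Stim1, Stim2, Tmco1 and Itpr3, and it overlaps that of Atp2a2 at its edge. The only other summits within 50 kb of a Cisd2 start site were at start sites of Ube2d3, a ubiquitin-conjugating enzyme gene, at 5.37-fold and 4.08-fold.

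Atp2a2, which encodes SERCA2, the pump that returns calcium to the ER lumen, had a pair of promoter peaks on either side of its start sites. The stronger, chr5:122501309-122502081, lay in the first intron 419 bp downstream, with 16 reads against 0.965 and a fold of 8.65 (5.16 to 13.7). The weaker lay 149 bp upstream, with 12 reads against 1.91 and a fold of 4.46 (2.47 to 7.54). The intervals of the pair overlap, and whether the folds differ was not tested. The 2 distal peaks lay in intergenic sequence 30294 bp and 39983 bp upstream, at 5.42-fold (2.68 to 10.1) and 9.75-fold (5.40 to 16.5).

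Of the 3 inositol trisphosphate receptor genes, whose products release calcium from the ER, only Itpr3 had a promoter peak. That peak was 172 bp wide, 467 bp upstream of the single Itpr3 start site, and rested on 7 reads against a background of 0.568. Its fold was 5.10 (2.43 to 9.84), at rank 4959 of 6100. This is the lowest of the members by highest promoter fold, but its interval overlaps those of Atp2a2, Stim1, Stim2 and Tmco1. The weaker Atp2a2 promoter peak was lower, at 4.46. Itpr1 and Itpr2 had no summit within 1 kb of any of their 6 and 4 start sites, and the nearest summits were 9170 bp and 6884 bp away. Both genes are long, at 338 kb and 394 kb, which places them at the 97.9 and 98.3 percentiles of gene length. A peak call that is absent shows only that no peak passed the authors' threshold there.

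Itpr1 had an intron peak of 11.2-fold (6.49 to 18.4, 14 reads) 9170 bp downstream of an internal start site and a weaker one of 5.25-fold (2.40 to 10.5, 6 reads) 39203 bp downstream. Itpr2 had a peak 6884 bp upstream at 7.96-fold (4.89 to 12.3, 18 reads) and an intron peak at 4.0-fold (1.83 to 8.04, 6 reads), 40309 bp downstream of an internal start site. The distal summit of Itpr3 lay 10998 bp upstream at 6.84-fold (3.5 to 12.4).

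Repeat sequence touched several of these peaks. The summit base itself was soft-masked at 4 of the 18 member peaks, all of them distal. The masked share of the 101 bases around those 4 summits was 100.0% upstream of Itpr2, 99.0% upstream of Itpr3, 35.6% at the weaker Itpr1 peak and 20.8% at the nearer upstream peak of Atp2a2. The window of the Itpr3 promoter peak was 44.6% masked, with a summit outside the masked bases. Reads can be placed in more than 1 copy of a repeat, and the part of this in those folds was not tested.

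The STIM genes encode the sensors of calcium in the ER lumen. The promoter peak of Stim1, chr7:102267491-102267711, lay 175 bp upstream of a start site, with 14 reads against 1.01 and a fold of 7.46 (4.30 to 12.2). Stim2 had a broader promoter peak, 864 bp wide, whose summit was in a 5′ UTR, 309 bp beyond the nearest start site and 375 bp beyond the outermost, with 22 reads against 1.72 and a fold of 8.47 (5.44 to 12.6). The intervals of the promoter folds of the STIM genes overlap over most of their length, and whether the folds differ was not tested.

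At Stim2 the highest deposited fold was outside the promoter. A peak 3004 bp upstream, chr5:53995311-53995711, held 29 reads against a background of 0.858, a fold of 16.1 (11.0 to 23.0), and its window had 76.2% G and C with no repeat-masked base. It was the highest of the 10 distal folds of the members, above 89.2% of distal peaks or level with them. That order rests on the added 1. By the plain ratio of reads to background this peak, at 33.8, was rank 4 of the 10. Above it stood Itpr1 at 42.0 and the farther peaks of Stim2 and Atp2a2 at 36.0 each, all on a background of 0.333 reads. That value is the genome-wide background, at which 5 of the 18 member peaks stood, so their plain ratios rest on it. A further peak, 45156 bp upstream of an internal Stim2 start site and within an intron, stood at 9.75-fold (5.40 to 16.5, 12 reads). No distal peak was assigned to Stim1, since a distal summit counts for the gene with the nearest start site alone.

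Tmco1 encodes an ER membrane protein described as a channel that lets calcium out of an overfilled ER and as a component of membrane protein insertion machinery. Its promoter peak, chr1:167308477-167308683, was 207 bp wide, with 14 reads against 0.99 and a fold of 7.54 (4.35 to 12.3). The summit lay 198 bp downstream of the outermost start site, in a 5′ UTR, and 94 bp upstream of the next start site. Tmco1 had no distal peak.

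**Figure D2:**
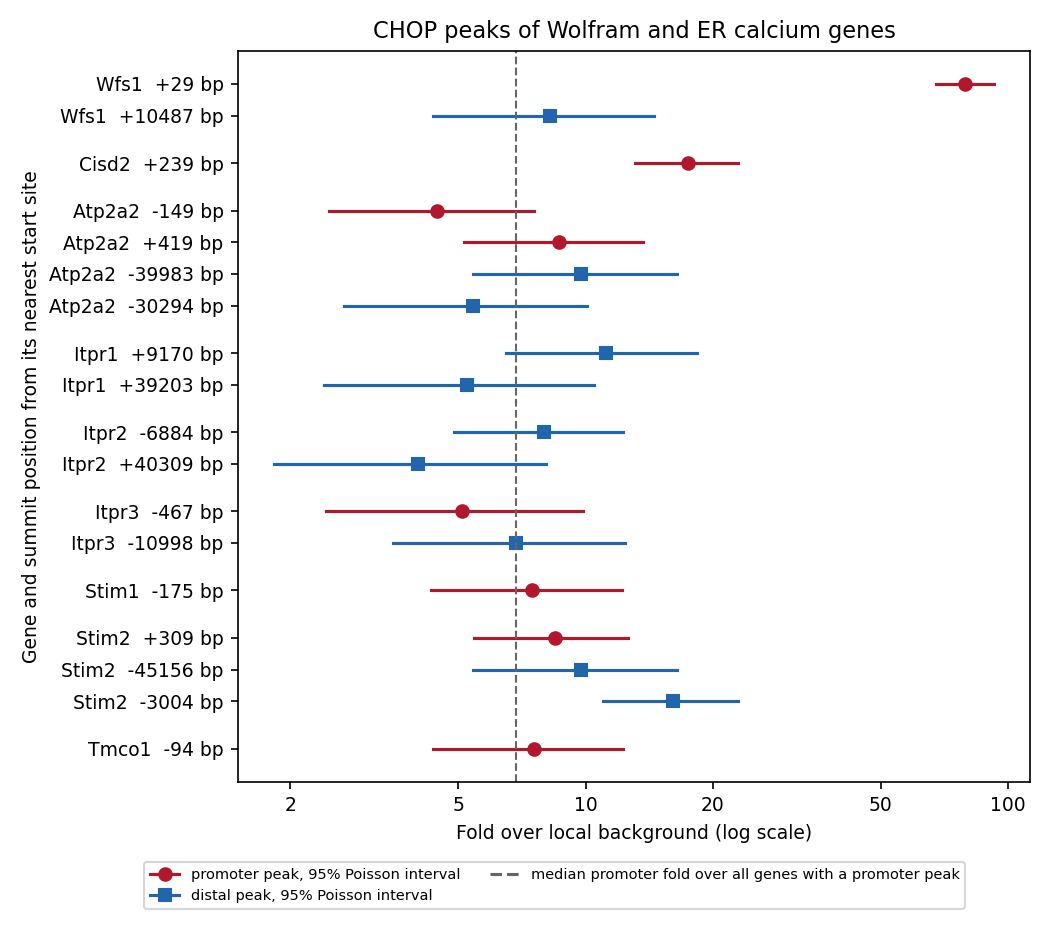
Fold over the local background (log scale) of each of the 18 peaks, labelled by gene and by summit position from the nearest start site. Points are the authors' folds, bars are exact 95% Poisson intervals on the reads at the summit, and the dashed line is the median promoter fold of 6.86 over all genes with a promoter peak. Wfs1 at 79.4 is clear of every other peak, and most other intervals cross the dashed line.

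Set against all 6100 genes with a promoter peak, Wfs1 stood at the 99.9 percentile of fold and Cisd2 at 93.3. Atp2a2 at 68.3, Stim2 at 67.0, Tmco1 at 58.6 and Stim1 at 57.1 were a little above the middle, and Itpr3 at 18.7 was below it. The median over the 7 members was 8.47, beside 6.86 over all genes with a promoter peak. These percentiles place the genes within 1 library and carry no test.

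**Figure D3:**
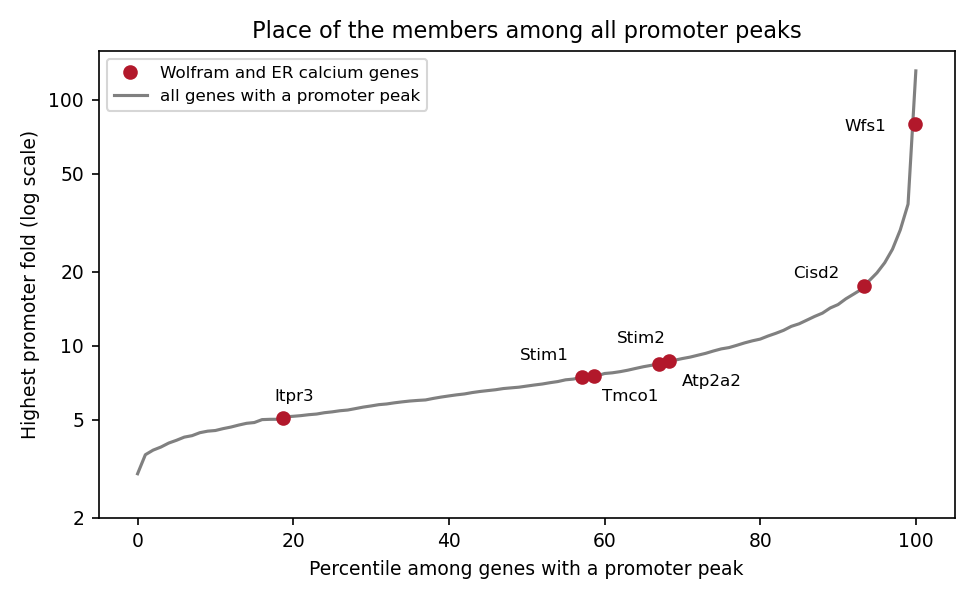
Highest promoter fold (log scale) against percentile for the 7 members with a promoter peak (red, named) and for all 6100 genes with a promoter peak (grey curve). Wfs1 lies on the steep end of the curve and Cisd2 at its shoulder at 93.3, and the other 5 lie on its flat part between 18.7 and 68.3.

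The rule did not use base composition, and the CpG content of the members' promoters ran from near the middle of all genes to the top. Within 500 bp of the outermost start site the ratio of observed to predicted CpG was 0.626 for Itpr1, the lowest, and 1.03 for Atp2a2, the highest, beside a median of 0.561 over all genes. All 9 were above the median, with Itpr1 and Itpr2 close to it at the 56.1 and 58.7 percentiles and Atp2a2 at 99.0. Among the protein-coding genes with a ratio at or above that of Itpr1, 52.9% had a promoter peak. The G and C share was highest at Atp2a2 with 77.5% and lowest at Cisd2 with 49.4%, which is below the median of 54.9% over all genes, at the 30.2 percentile.

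C/EBP-ATF composite elements, at which a C/EBP-family protein such as CHOP can bind with an ATF partner, were searched with other motifs on both strands within 50 bp of each summit. The composite TGATGNAAT was in none of the 18 member windows, beside 0.714% of promoter summit windows and 3.97% of distal ones. Its shorter form TGATGNAA, called the CARE core here and searched after the windows were seen, was at 3 of the 10 distal summits and at 0 of the 8 promoter summits. Those 3 were the intron peak of Wfs1, the intron peak of Stim2 and the farther upstream peak of Atp2a2. The CARE core is part of the composite and was in 9.81% of distal and 1.87% of promoter summit windows, in 1.34% and 1.44% of windows 500 bp to either side of all summits, and in 4.06% of RefSeq promoters of 300 bases. In the Stim2 intron the match TGATGAAA lay on the summit itself, while in the Wfs1 intron it lay 38 bp away and upstream of Atp2a2 the match lay 40 bp away. Outside these windows but inside called peaks, the upstream peak of Itpr2 held the composite, as TGATGAAAT, 116 bp from its summit. The nearer upstream peak of Atp2a2 held TGATGAAA 108 bp away, and the stronger Itpr1 intron peak held TGACGCAA 176 bp away. The shares given above are for summit windows and do not apply to whole peaks.

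The Wfs1 promoter summit, the strongest of the set, held none of the composite, CARE core, CRE (TGACGTCA), AP-1 (TGANTCA), XBP1 element (TGACGTGG) or ER stress element matches. The only searched motif in that window was the hexamer TGCAAT, 20 bp from the summit, which was added to the search after the windows were seen and is also part of the longer CHOP core TGCAATNCC. The hexamer was in 3.46% of promoter and 13.7% of distal summit windows, and in 8.52% of RefSeq promoters of 300 bases, which are longer. In windows 500 bp to either side of all summits it was in 3.14% and 3.28%, close to the promoter share. Among the 20 promoter peaks of highest fold in the list, 6 had a CARE core of the form TGATGNAA or TGACGNAA at the summit, beside 3.17% of all promoter peaks. Of the same 20, 5 had TGCAAT, Wfs1 among them, beside the 3.46% given above. TGCAAT and both CARE forms were added to the search after the windows were seen, so nothing is read from these counts. The absence of a match says only that these letters are not within 50 bp of the summit.

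GC boxes (GGGCGG) were at 4 of the 8 promoter summits, namely those of Cisd2, Stim2 and both Atp2a2 peaks, beside 45.4% of promoter summit windows. The Cisd2 summit also had an E-box palindrome (CACGTG) 18 bp away, found in 5.41% of promoter summit windows. Upstream of Stim2 the octamer TGATGTCA, a match to TGANGTCA, lay 24 bp from the summit, and 3.54% of distal summit windows held such a match. The window of Itpr3 held TTGCACAA, a match to TTGCNNAA, 42 bp from the summit, overlapping a TGCAAT hexamer. The octamer begins on the last base of the called peak, and the hexamer lies past its end. TTGCNNAA was in 2.11% of promoter summit windows, and in 3.82% and 3.71% of windows 500 bp to either side of all summits. No searched motif was found at the promoter summits of Stim1 and Tmco1.

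Other genes of ER calcium handling were counted from lists arranged by role, of which 70 of 71 genes were in the annotation. A promoter peak was found at 34 of the 70 (48.6%), beside 27.9% of all protein-coding genes and 7 of the 9 members. Among protein-coding genes with a CpG ratio at or above that of Itpr1, the share was 52.9%. The lists were chosen with earlier results of these data known, so nothing is read from these shares. The median promoter fold of the 34 was 8.21, beside 8.47 for the members and 6.86 over all genes with a promoter peak, and none of the 34 reached the fold of Wfs1. None of the 34 had the composite at the summit of its highest promoter peak.

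Of 8 genes listed as other SERCA pumps and regulators 1 had a promoter peak (12.5%), Tmem64, a regulator of SERCA2, at 8.80-fold (5.54 to 13.4), and the other SERCA genes Atp2a1 and Atp2a3 had none. Of 6 genes for calcium removal at the plasma membrane, Golgi or mitochondria 1 had a promoter peak (16.7%), Atp2b1, a plasma membrane calcium ATPase, at 16.1-fold (11.3 to 22.2). Of the paralogs of Cisd2, Cisd1, a protein of the outer mitochondrial membrane, stood at 7.54-fold (4.50 to 12.0) and Cisd3 had no promoter peak.

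Release channels and their regulators had promoter peaks at 9 of 16 genes (56.2%), beside 27.9% of all protein-coding genes. Ahcyl2, related to the inositol trisphosphate receptor binding protein IRBIT, reached 44.3-fold (34.7 to 55.7) at rank 44. Ahcyl1, which encodes IRBIT, stood at 13.9-fold (9.82 to 19.2), and Rnf170, a ubiquitin ligase of activated inositol trisphosphate receptors, at 14.6-fold (10.1 to 20.6) in a peak shared with the start sites of Hook3 and Gm45692. The intervals of these 3 genes lie above that of Itpr3 or meet its upper end. The ryanodine receptor genes Ryr1, Ryr2 and Ryr3 had no promoter peak.

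Of 9 genes of store-operated calcium entry 6 had a promoter peak (66.7%), beside 27.9% of all protein-coding genes. Saraf, an inhibitor of STIM-gated entry, stood at 15.6-fold (10.4 to 22.6), and the channel genes Orai2 and Orai1 at 10.4-fold (6.46 to 15.9) and 7.54-fold (4.57 to 11.8). Calcium-binding proteins of the lumen had 7 of 15 (46.7%), led by the chaperone gene Calr at 15.7-fold. Next came Pdia3, a disulfide isomerase, at 11.8-fold (7.66 to 17.5) and Canx, the membrane chaperone calnexin, at 8.38-fold (5.21 to 12.9). Genes of calcium transfer from ER to mitochondria had 9 of 14 (64.3%), led by Hspa9, a mitochondrial chaperone, at 26.0-fold (19.4 to 34.2). Rmdn3, an ER-mitochondria tether, stood at 11.1-fold (6.93 to 17.1) and Pacs2, a sorting protein of the contact sites, at 9.91-fold (6.37 to 14.8).

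**Figure D4:**
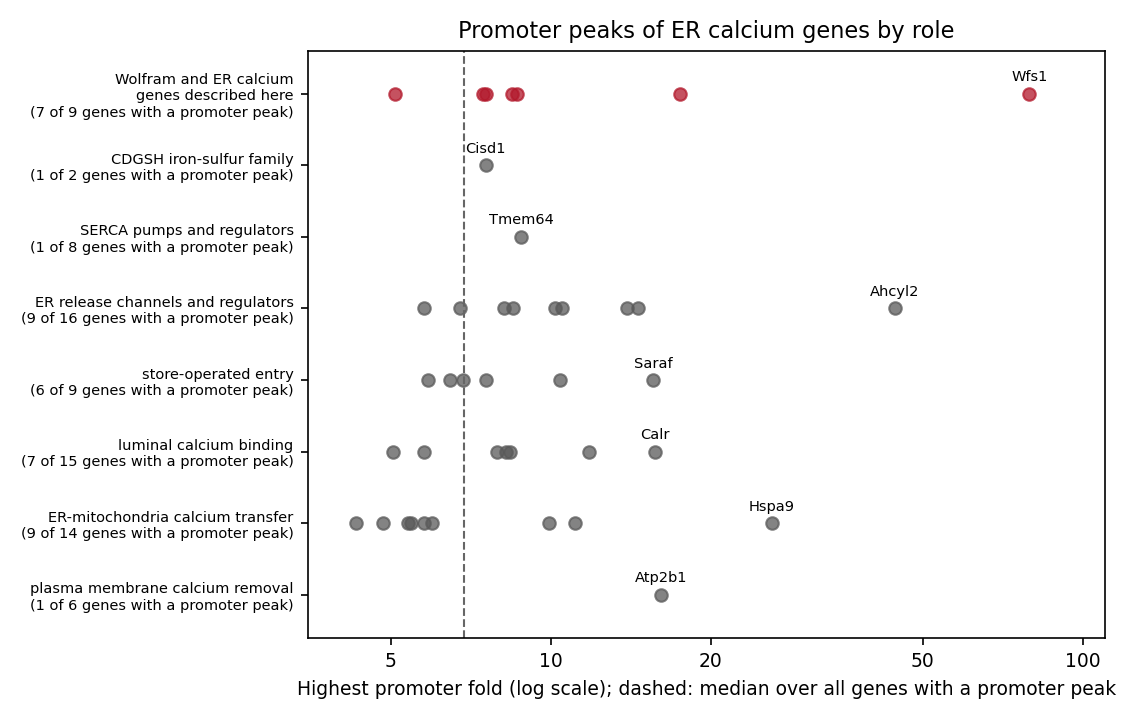
Highest promoter fold (log scale) of each gene with a promoter peak, for the 9 genes described here (red, top row) and for the other ER calcium genes by role (grey rows), with the number of genes with a promoter peak in each row label and the highest gene named. The dashed line is the median of 6.86 over all genes with a promoter peak. Ahcyl2 at 44.3 is the highest of the other genes and lies left of Wfs1 at 79.4.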

How the data were processed

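Per the labels' protocols, Bowtie placed single-end reads on mm10 (at most 2 mismatches), stacked duplicates were dropped, SAMtools 1.9 and Sambamba 0.7.1 filtered the alignments, and MACS2 2.1.2 at default settings called peaks on 1 pooled library. The submitters' processing notes name the same tools without Sambamba. The version of Bowtie was not given in the sources used here. The authors deposited for each peak a fold ratio over local background, −log10 p, −log10 q, a score and a summit offset. Total library depth: not given in the sources used here.

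The whole-number reads at each summit and the background were solved from the fold and −log10 p, taking the fold as (reads + 1)/(background + 1), which gave a solution within 0.0001 for all 14157 peaks. Reads carry no molecular identifiers. Start sites came from GENCODE M21, and sequence, with repeats in lower case, from GRCm38.p6 of RefSeq, as did the promoter table. A gene with several promoter peaks is given by the highest fold. The members, the role lists, the 15 motifs first searched and 4 added later were chosen with earlier results of these data known. Named genes are the members, Ggnbp1 as the gene nearest to another distal summit within 50 kb, and the 3 highest promoter folds of each role list. A further distal summit within 50 kb of a member is not reported here. Ube2d3, the ryanodine receptor genes, Atp2a1, Atp2a3, Cisd3, Mrln and Hspa5 were named after their values were seen. Scripts were tested on simulated data and run with Python 3.11.15, numpy 2.4.6, pandas 2.3.3, scipy 1.17.1, pysam 0.24.0 and matplotlib 3.10.9. Alternatives were other peak thresholds, distances, start sites, measures and motifs. No statistical test was run, because there is 1 immunoprecipitate and the members were chosen with its peaks known.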

Additional observations from a re-analysis of the deposited data

How the results depend on the processing

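No paired analysis was possible because the immunoprecipitate and the input are 1 library each and only the immunoprecipitate has a peak list. The number of members with a promoter peak stayed at 7 under 8 of 9 alternatives and was 6 with −log10 q of at least 5, where Itpr3 was lost. The number with a distal peak was 3 within 10 kb in place of 50 kb and between 4 and 6 otherwise. The percentile of the Wfs1 promoter fold was between 99.8 and 99.9 among genes and 99.7 among all peaks, and it was 99.7 with the plain ratio of reads to background in place of the fold, a measure chosen after seeing the data. By that ratio Wfs1, Cisd2 and Atp2a2 kept ranks 1 to 3 of the 8 promoter peaks. The composite was at 1 summit with the start sites of all transcripts, which brought a further summit inside Itpr1 within 50 kb. It was at 0 in the other alternatives. With the motifs chosen after seeing the data in its place, 3 summits had TGATGNAA and 2 had TGCAAT. At Itpr3 that TGCAAT match lies past the end of the called peak. With the promoter peak nearest to a start site, Atp2a2 stood at 4.46 in place of 8.65. The other ER calcium genes with a promoter peak numbered 31 to 36. The promoter intervals of Atp2a2, Stim1, Stim2, Tmco1 and Itpr3 overlap one another. Their order was not tested, and nothing is read from it.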

Other observations

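Itpr1 held 2 further summits inside the gene, beyond 50 kb from its start sites. The one 117074 bp away had a fold of 9.0 (4.87 to 15.5, 11 reads) and a C/EBP-ATF composite within 50 bp, and the one 80263 bp away had a fold of 6.0 (2.86 to 11.6, 7 reads).

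Near Itpr3 a peak 312 bp wide stood at 12.9-fold (7.81 to 20.2) and was nearer to Ggnbp1. Of the 101 bases around its summit 69.3% are soft-masked as repeats. The part of repeats in this fold was not tested.

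Among the other ER calcium genes 21 of 70 had a distal peak, beside 18.0% of all protein-coding genes. These lists were chosen with earlier results of these data known, so nothing is read from that count. The highest, chosen after the values were seen, were Mrln, a micropeptide that inhibits SERCA in muscle, at 37.9-fold 9435 bp away, and Hspa5, the ER chaperone BiP, at 26.2-fold 1726 bp away.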
